A study of Homo sapiens with 14 samples.

Results

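The cell junction genes were analysed here for KLF4 occupancy in BEAS-2B cells, an established line of human bronchial epithelial cells. The group comprised every protein-coding gene of the GENCODE 44 annotation whose symbol is CLDN followed by a number, DSG or DSC followed by a digit, PKP or TJP followed by a digit, GJA, GJB or GJC followed by a number, or one of DSP, JUP, OCLN, CGN, F11R, MARVELD2 and MARVELD3. This rule found 62 of 20033 protein-coding genes, namely 32 tight junction genes (24 of them claudins), 13 desmosome genes and 17 gap junction genes. A gene was counted in a library when the summit of a listed KLF4 peak lay between 5 kb upstream of its transcription start site (TSS, the 5′ end of the gene record) and the end of the gene.

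KLF4 chromatin immunoprecipitation sequencing (ChIP-seq) had been performed in 4 conditions, with 1 library each. WT control received no arsenite, and WT As3+ was the same kind of cells given 1 µM As3+ for 6 h. The paper designates as WT those colonies that still expressed Nrf2 after transfection with the guide plasmids and blasticidin selection. WT here therefore need not mean unedited parental cells. Nrf2 KO control and Nrf2 KO As3+ were cells edited by CRISPR-Cas9 with guides to exon 2 of the Nrf2 gene, without and with the same As3+ exposure. The genotype of a colony had been read from a western blot for Nrf2, and how many colonies stand behind each library is not given in the sources used here. Because no condition has a replicate, differences between libraries could not be set against the spread of replicates, and none was tested. Peak lists hold no expression values, so the epithelial identity of the cells and the absence of Nrf2 could not be checked in them.

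Epithelial cells are held together by several kinds of junction. Tight junctions seal the space between neighbouring cells near the apical side, where claudin and occludin strands span the membranes and the ZO proteins (TJP genes) and cingulin (CGN) tie the strands to actin. Desmosomes are adhesive spots in which desmogleins and desmocollins, both cadherins, meet across the gap and are linked by plakoglobin (JUP), plakophilins (PKP) and desmoplakin (DSP) to keratin filaments. Gap junctions are channels made of connexins (GJA, GJB and GJC genes), through which ions and small metabolites pass between cells. KLF4 is a zinc finger factor known for its part in epithelial barrier formation and binds CACCC-type sequences, whereas Nrf2 acts through antioxidant response elements.

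The junction gene sites at issue can be read directly in the genome sequence. The 3 windows printed next are 200 bp of the plus strand of hg38 centred on the summit of a WT As3+ peak, and were chosen because they hold a KLF word (CCACACCC or CCACGCCC), an AP-1 word (TGACTCA or TGAGTCA) or an antioxidant response element word (ARE, TGACNNNGC). Capitals mark these words in either orientation. The CLDN6 window (chr16:3020948-3021147) belongs to the peak with the highest fold of all junction genes, and the CLDN19 window (chr1:42736362-42736561) is an intronic site with a KLF word. The CLDN3 window (chr7:73770451-73770650) lies just upstream of the gene and carries 2 ARE words.
CLDN6: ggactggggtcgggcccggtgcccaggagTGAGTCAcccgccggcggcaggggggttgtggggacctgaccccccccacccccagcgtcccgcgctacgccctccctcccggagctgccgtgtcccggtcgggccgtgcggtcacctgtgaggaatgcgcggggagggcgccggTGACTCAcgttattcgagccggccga
CLDN19: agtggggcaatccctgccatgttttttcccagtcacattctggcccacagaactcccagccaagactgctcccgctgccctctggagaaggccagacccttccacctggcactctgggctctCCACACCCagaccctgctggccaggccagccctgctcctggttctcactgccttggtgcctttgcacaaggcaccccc
CLDN3: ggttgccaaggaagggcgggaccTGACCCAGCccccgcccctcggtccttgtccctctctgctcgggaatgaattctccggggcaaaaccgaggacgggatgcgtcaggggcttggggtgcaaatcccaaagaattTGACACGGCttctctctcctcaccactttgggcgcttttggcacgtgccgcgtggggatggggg

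Shorter stretches are given for 4 further WT As3+ sites, as the word with 10 bases on each side. They show the AP-1 word at the PKP3 promoter (chr11:393403-393429), the ARE word at the start of JUP (chr17:41786592-41786620), the KLF word close to the GJA3 TSS (chr13:20161084-20161111) and an ARE word in intron 1 of OCLN (chr5:69502166-69502194). The GJA3 and OCLN stretches belong to weak peaks, with folds of 3.41 on 7 fragments and 3.43 on 11 fragments. Both genes had a higher WT As3+ peak elsewhere, and this OCLN word lies in repeated sequence, as given below.
PKP3: ccctgcacccTGACTCAtgtgctggga
JUP: gtatggggccTGACCGGGCcgggtcgggg
GJA3: ggacgccgcgCCACGCCCccgccgcctc
OCLN: tccatcctggTGACAGAGCgagactcggc

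In WT cells the KLF4 list went from no junction gene to 31 of 62 with As3+. None of the 62 had a summit in WT control, where 2.28% of all protein-coding genes had one. In WT As3+ the 31 genes stood against a background of 63.7% of all protein-coding genes. All 31 therefore counted as gained, that is, with a summit in WT As3+ and none in WT control, as did 61.5% of all protein-coding genes. The junction genes thus took part in an increase that covered most of the genome, at a share lower than that of genes in general.

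The Nrf2 KO libraries showed the opposite order. Without As3+, 47 of the 62 junction genes (75.8%) had a KLF4 summit in Nrf2 KO cells, against 78.6% of all protein-coding genes. With As3+, a single junction gene was in the list, CLDN16, or 1.61% of the 62, against 0.414% of all protein-coding genes. All 31 genes with a summit in WT As3+ also had one in Nrf2 KO control, a combination found in 61.0% of all protein-coding genes. None had a summit in WT As3+ and none in Nrf2 KO control, which held for 2.65% of all protein-coding genes. Read from the other side, 95.8% of the 12761 protein-coding genes with a WT As3+ summit had a Nrf2 KO control summit too, so the complete overlap of the junction genes lay near the background. It did not hold for the stronger peaks alone. At a −log10 q of at least 5 in each list 13 of 19 gained junction genes were shared, against 75.4% of all gained protein-coding genes. CLDN1, CLDN4, CLDN16, GJB2, JUP and PKP4 passed this limit in WT As3+ only. Their highest −log10 q in Nrf2 KO control ran from 3.278 (GJB2) to 4.999 (PKP4), so some fell just short of it. These values are of any peak in the gene window. Those of PKP4 and JUP (4.236) came from peaks that overlapped no WT As3+ peak. At the site of their highest WT As3+ fold, the Nrf2 KO control peak had a −log10 q of 2.115 (PKP4) and 3.742 (JUP).

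**Figure D1:**
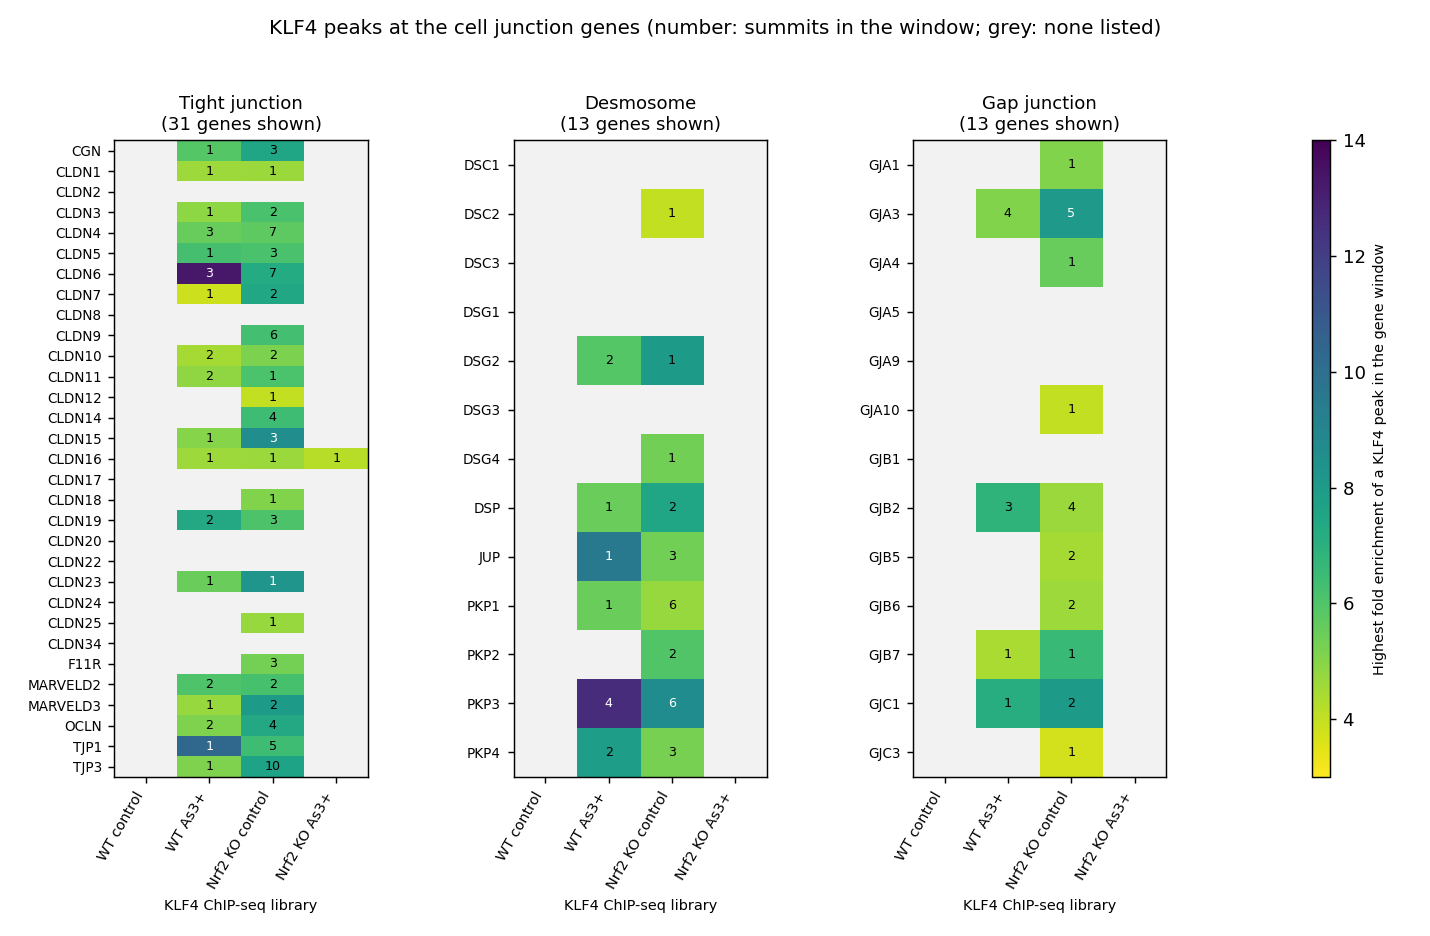
KLF4 peaks at 57 of the 62 junction genes (rows) in the 4 libraries (columns), in 3 panels for tight junction, desmosome and gap junction genes. Colour gives the highest fold enrichment of a peak in the gene window, the number in a cell counts the summits, and grey cells have none listed. Over the 62 genes, 31 have a summit in WT As3+ and 47 in Nrf2 KO control, while the WT control column is empty and the Nrf2 KO As3+ column holds CLDN16 alone.

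The libraries differed in how small a signal they listed, and this touches every count here. For each peak the lists give the fold enrichment of the summit relative to its local background, a −log10 p and a −log10 q, and the number of fragments over the summit follows from the fold and p. The weakest listed peak rested on 10 fragments in WT control and in Nrf2 KO As3+, on 5 in WT As3+ and on 4 in Nrf2 KO control. The lowest background was 1.90 fragments in WT control, 0.757 in WT As3+, 0.491 in Nrf2 KO control and 1.64 in Nrf2 KO As3+, so the 2 short lists came from the libraries with the highest background. The lowest listed −log10 p was 4.64, 3.17, 2.87 and 5.03 in the same order. The part of background and depth in the presence or absence of a listed peak was not tested.

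The 3 kinds of junction differed in WT As3+ more than in Nrf2 KO control. Among the tight junction genes 19 of 32 (59.4%) had a WT As3+ summit and 25 (78.1%) a Nrf2 KO control summit. For the desmosome genes these numbers were 6 (46.2%) and 9 (69.2%) of 13, and for the gap junction genes 6 (35.3%) and 13 (76.5%) of 17. The order tight junction, desmosome, gap junction of WT As3+ was not seen in Nrf2 KO control. These groups are small, and no test of a difference between them was made.

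**Figure D2:**
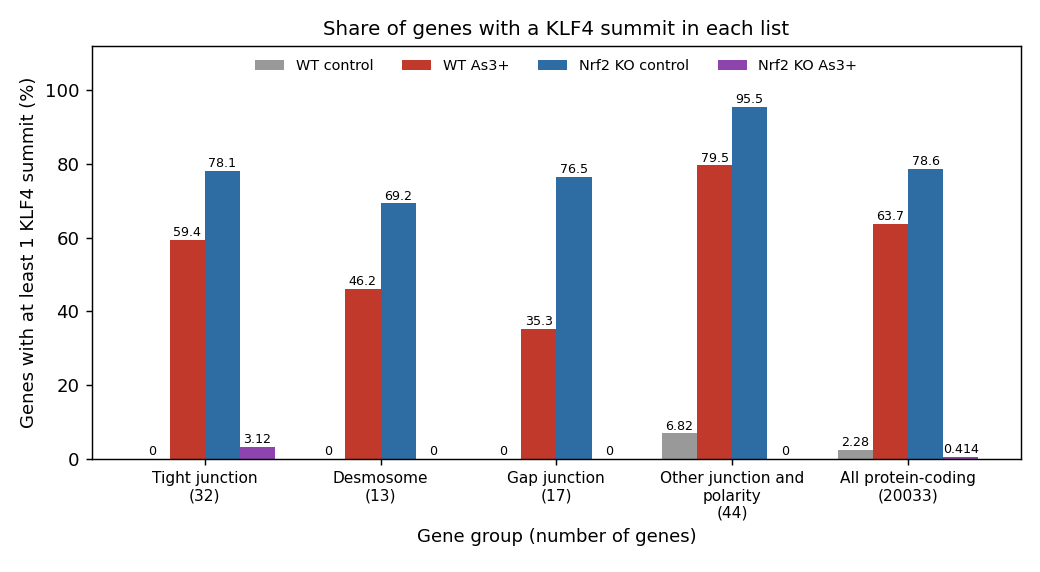
Share of genes (%) with at least 1 KLF4 summit, by gene group on the x axis, with 1 bar per library. In WT As3+ the 3 junction groups stand at 59.4%, 46.2% and 35.3%, against 63.7% of all 20033 protein-coding genes and 79.5% of 44 other junction and polarity genes.

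Over all protein-coding genes, the share with a summit was higher in longer genes. The junction genes had a median length of 19981 bp, against 27471 bp of all protein-coding genes, and the claudins were the shortest with a median of 6044.5 bp. Among genes of up to 10000 bp, 10 of 23 junction genes had a WT As3+ summit, against 46.0% of all genes of this length. Between 10000 and 50000 bp it was 14 of 28 against 65.6%, and above 50000 bp 7 of 11 against 74.8%. In Nrf2 KO control the counts were 16 of 23 against 61.8%, 21 of 28 against 81.2% and 10 of 11 against 88.3%. The lower share in WT As3+ was thus seen in the middle and long genes, and hardly in the short ones.

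Close to the TSS the picture was similar. A WT As3+ summit within 2 kb of the TSS was found in 23 junction genes (37.1%), against 50.4% of all protein-coding genes. In Nrf2 KO control it was found in 37 (59.7%), against 65.2%. Of the 56 pairs of a junction gene and a WT As3+ summit, 33 (58.9%) lay within 2 kb of the TSS, and 12 of the others lay in introns. Of the 137 pairs in Nrf2 KO control, 65 (47.4%) lay within 2 kb and 34 of the others in introns. Over all protein-coding windows these shares within 2 kb were 52.9% and 35.3%, below those of the junction genes in both libraries. A shorter gene has a shorter window, of which more lies near the TSS. The junction genes were the shorter group (median 19981 bp against 27471 bp), and the part of length in these shares was not tested. The TSS nearest to the summit was that of a junction gene for 49 of the 55 distinct WT As3+ summits, and 14 of the 55 also fell in the window of another protein-coding gene.

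**Figure D3:**
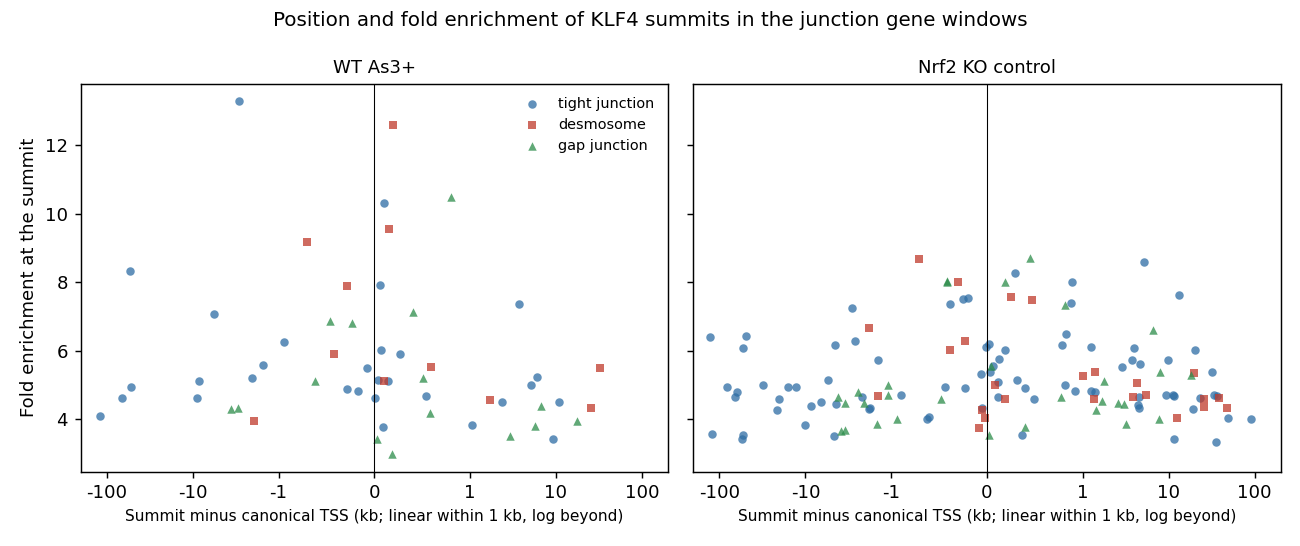
Fold enrichment of each KLF4 summit in a junction gene window (y axis) against its distance in kb from the TSS of the canonical transcript (x axis, linear within 1 kb and logarithmic beyond), for WT As3+ (left) and Nrf2 KO control (right). Summits gather around the TSS in both libraries. Folds reach 13.3 in WT As3+ and 8.70 in Nrf2 KO control.

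The WT As3+ sites of junction genes were of ordinary strength for that list. The 55 distinct summits had folds from 2.98 to 13.3 with a median of 5.12, against 4.76 over all protein-coding windows. Each rested on 6 to 45 fragments with a median of 11, the same median as over all protein-coding windows. In Nrf2 KO control the 134 distinct summits had folds from 3.33 to 8.70 (median 4.82, against 4.69) and 4 to 18 fragments (median 7, again the general median). Fold is a ratio to the background of its own library, so it ranks sites within a list. Where folds of a site are given for both lists, their difference was not tested and does not measure a change in binding.

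Among the tight junction genes the claudins came first in number, being 24 of the 32, but not in share. Of the 24 claudins, which set the tightness and ion selectivity of the seal, 12 had a WT As3+ summit, and 17 a Nrf2 KO control summit. Both shares lay below those of all protein-coding genes (63.7% and 78.6%). Of the other tight junction genes, all but F11R had a WT As3+ summit, and all had a Nrf2 KO control summit. These differences were not tested. The highest fold in WT As3+ was found in the CLDN6 window, at chr16:3020690-3022356, with a fold of 13.3 and 45 fragments (exact Poisson interval 32.8 to 60.2), which ranked 126 of 29870 peaks in the list. The summit lay 680 bp from the TSS of TNFRSF12A, which encodes the receptor of the cytokine TWEAK, and this TSS was closer to it than that of CLDN6. The 2 other WT As3+ peaks in the CLDN6 window were likewise nearest to other genes, 153 bp from the TSS of TNFRSF12A and 83 bp from that of HCFC1R1. CLDN6 thus counted in WT As3+ through peaks that lay nearer to the starts of neighbouring genes. Nrf2 KO control also listed the large peak, at chr16:3020889-3022303 with a fold of 7.24 and 18 fragments (10.7 to 28.4).

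CLDN19, a claudin of the kidney and retina, had the next highest claudin peak, in its intron 3 at chr1:42736090-42736658, with a fold of 7.35 and 14 fragments (7.65 to 23.5). The same site was listed in Nrf2 KO control with a fold of 6.06 and 9 fragments. CLDN5, a claudin best known from endothelium, had 1 WT As3+ peak at chr22:19525252-19525497 with a fold of 6.25 and 11 fragments, 943 bp from its canonical TSS. No Nrf2 KO control peak overlapped it, although the CLDN5 window held 3 other summits in that library. CLDN5 thus counted in both libraries through different sites.

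CLDN3 and CLDN4, neighbouring genes for barrier-forming claudins of many epithelia, both carried WT As3+ summits. CLDN3 had 1, at chr7:73770472-73770691, with a fold of 4.87 and 8 fragments, 281 bp from its TSS, and this is the window with 2 ARE words printed above. CLDN4 had 3 in WT As3+, of which the highest, at chr7:73829382-73829634 and 1514 bp from the canonical TSS, had a fold of 5.57 and 11 fragments. The other 2 lay inside the gene record but 8857 bp and 8512 bp from the canonical TSS, with folds of 4.61 and 5.12. Nrf2 KO control listed 2 summits for CLDN3 and 7 for CLDN4.

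CLDN1, a barrier-forming claudin of skin and airway, and CLDN16, a claudin of the kidney tubule, lie head to head on chromosome 3 and shared 1 WT As3+ peak. It covered chr3:190322209-190322564, 5 bp from the CLDN1 TSS, with a fold of 4.60 and 16 fragments (9.15 to 26). It counts for CLDN16 through the start of the gene record only, and with windows set by the canonical transcript CLDN16 had no WT As3+ summit, which left 30 junction genes. Nrf2 KO control had a peak at the same place, with a fold of 4.64 and 10 fragments. CLDN16 was the one junction gene in Nrf2 KO As3+, through a different peak in its intron 2 at chr3:190403498-190403746, with a fold of 4.17, 10 fragments (4.80 to 18.4) and a −log10 q of 1.39. This peak ranked 92 of 130 in its list, and no other library had a peak there. The remaining claudins with a WT As3+ summit were CLDN7, CLDN10, CLDN11, CLDN15 and CLDN23, with highest folds from 3.83 to 5.50.

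The proteins that tie tight junctions to the cytoskeleton had the clearest promoter sites. TJP1, which encodes ZO-1, had 1 WT As3+ peak at chr15:29821961-29822505, with a fold of 10.3 and 21 fragments (13 to 32.1), 105 bp from the canonical TSS in the 5′ UTR. It ranked 437 of 29870, and Nrf2 KO control listed the same site with a fold of 5.75 and 9 fragments. TJP3 (ZO-3) had 1 summit in WT As3+, 147 bp from its TSS with a fold of 5.12, and 10 in Nrf2 KO control, the most of any junction gene. Only 1 of these 10 overlapped the WT As3+ peak, and the others lay along the gene in introns or a coding exon, the farthest of them nearer to the TSS of APBA3.

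CGN, MARVELD2 and OCLN, which encode cingulin, tricellulin and occludin, had WT As3+ peaks at their TSS. The CGN peak lay 275 bp away with a fold of 5.91 and 14 fragments, the MARVELD2 peak 72 bp away with a fold of 6.02 and 18 fragments, and the OCLN peak 36 bp away with a fold of 5.13 and 15 fragments. All of these were also listed in Nrf2 KO control, with folds of 7.53, 6.19 and 7.35. MARVELD3, another membrane protein of the occludin family, had 1 WT As3+ peak with a fold of 4.69, and its highest Nrf2 KO control peak had a fold of 8.0. F11R, which encodes the adhesion protein JAM-A, had no WT As3+ summit and 3 in Nrf2 KO control, the highest 63 bp from its TSS with a fold of 5.31 and 14 fragments (7.65 to 23.5).

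Among the desmosome genes, 9 of the 11 WT As3+ summits lay in the windows of plaque proteins, which lie inside the cell. Of these 9, 4 were at PKP3 alone, and a difference between plaque and cadherin genes was not tested. PKP3, a plakophilin of most epithelia, had 4 WT As3+ summits, and its highest peak covered chr11:393881-394949 with a fold of 12.6 and 29 fragments (19.4 to 41.6), 199 bp from the canonical TSS and ranked 164 of 29870. A second PKP3 peak, 698 bp from the TSS at chr11:393093-393684, had a fold of 9.17 and 17 fragments, and its window holds the AP-1 word shown above. Both sites were listed in Nrf2 KO control, with folds of 7.56 (16 fragments) and 8.67 (12 fragments), among 6 summits in all. Apart from the CLDN6 window, the fold of 12.6 was the highest of any junction gene in WT As3+, and it lay at the promoter of PKP3 itself.

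JUP, which encodes plakoglobin, the linker shared with adherens junctions, had 1 WT As3+ peak at chr17:41785942-41786773 in intron 1, 160 bp from the TSS, with a fold of 9.55 and 17 fragments (9.90 to 27.2). Nrf2 KO control listed this site with a fold of 5.00 and 7 fragments. DSP, which encodes desmoplakin, had a WT As3+ peak 594 bp from its TSS with a fold of 5.51 and 13 fragments, and its Nrf2 KO control counterpart had a fold of 7.47 and 13 fragments. PKP4 had a WT As3+ peak with a fold of 7.87 and 16 fragments that lay 88 bp from the TSS of CCDC148, a neighbour transcribed away from it, and another in intron 1 with a fold of 4.33. PKP1 had 1 WT As3+ peak, in intron 3 with a fold of 5.50 and 10 fragments, that overlapped none of its 6 Nrf2 KO control peaks. PKP2, the plakophilin prominent in heart, was in the Nrf2 KO control list alone, with 2 summits and a highest fold of 6.00 on 11 fragments.

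The desmosomal cadherins lie in a single cluster of 7 genes on chromosome 18, from DSC3 at 30989365 to the end of DSG2 at 31549008. DSG2, the desmoglein found in simple epithelia, was the only one with a WT As3+ summit. It had 2, at 418 bp and 101 bp from its TSS, with folds of 5.91 (14 fragments) and 5.10 (10 fragments), and 1 Nrf2 KO control peak with a fold of 8.0 that overlapped both. DSC2 also had a Nrf2 KO control summit, 20 bp from its TSS with a fold of 4.02 on 5 fragments, and DSG4 had 1 in its intron 8 with a fold of 5.34 on 7 fragments. DSC1, DSC3, DSG1 and DSG3, genes known for stratified epithelium, had no summit in any list.

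Among the connexins, 6 of 17 had WT As3+ summits. On chromosome 13 lie GJA3, GJB2 and GJB6, a cluster of which the first 2 were listed in WT As3+. GJB2, which encodes connexin 26, the connexin most often mutated in inherited deafness, had 3 WT As3+ summits, the highest 463 bp from its TSS with a fold of 6.85 and 13 fragments (6.92 to 22.2). Its 4 Nrf2 KO control summits reached a fold of 4.64 on 7 fragments. GJA3, a lens connexin, had 4 WT As3+ summits with a highest fold of 5.10 on 10 fragments, 617 bp from its TSS, and 5 in Nrf2 KO control with a highest fold of 8.03 on 12 fragments. GJB6 had 2 summits in Nrf2 KO control and none in WT As3+.

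GJC1, a connexin of the heart and vessels, had 1 WT As3+ peak, 403 bp from its TSS, with a fold of 7.13 and 13 fragments, and the site was listed in Nrf2 KO control with a fold of 8.0 and 11 fragments. The GJB7 peak lay 108 bp from the TSS of SMIM8 and 6798 bp inside GJB7. GJA1, which encodes connexin 43, the most widely expressed connexin, had no WT As3+ summit and 1 in Nrf2 KO control, in intron 1 with a fold of 5.10 on 12 fragments (6.20 to 21.0).

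In all, 16 junction genes were listed in Nrf2 KO control and not in WT As3+, a pattern of 17.6% of all protein-coding genes. They included CLDN9, CLDN12, CLDN14, CLDN18, CLDN25 and F11R, the desmosome genes DSC2, DSG4 and PKP2, and the connexin genes GJA1, GJA4, GJA10, GJB5, GJB6 and GJC3. CLDN9 stood out among them by its 6 summits, with folds from 3.51 to 6.29. A further 15 genes had no summit in any of the 4 lists, or 24.2% against 18.7% of all protein-coding genes. Among these were CLDN2, CLDN8, CLDN17, CLDN20, CLDN22, CLDN24, CLDN34, DSC1, DSC3, DSG1, DSG3, GJA5, GJA9 and GJB1.

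Most individual sites, and not only the genes, were shared between WT As3+ and Nrf2 KO control. Of the 55 WT As3+ sites, 41 overlapped a Nrf2 KO control peak by at least 1 bp, which is 74.5%. The exact Clopper-Pearson interval, which covers counting error alone, was 61.0% to 85.3% and holds the 62.5% found for the 22544 sites in protein-coding windows. By gene, 28 of 31 shared at least 1 site, and CLDN5, CLDN10 and PKP1 did not. The summits of the 41 were a median of 158 bp apart. None of the 55 overlapped a WT control or a Nrf2 KO As3+ peak, which allows a share of up to 6.49%, and over all protein-coding windows these shares were 1.77% and 0.231%. In the other direction, 42 of the 134 Nrf2 KO control sites (31.3%, 23.6% to 39.9%) overlapped a WT As3+ peak.

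The junction genes in the lists differed from those outside them in promoter sequence. The ratio of observed to expected CpG in the 1000 bp around the canonical TSS, which is high in CpG islands, had a median of 0.757 in the 31 genes with a WT As3+ summit, 0.388 in the 16 with a Nrf2 KO control summit only and 0.205 in the 15 with none. Over all protein-coding genes sorted in the same way the medians were 0.777, 0.674 and 0.272. A ratio of at least 0.6 was found in 29 junction genes (46.8%), against 66.3% of all protein-coding genes. Within genes of at least 0.6, 24 of 29 junction genes (82.8%) had a WT As3+ summit, against 78.0% of all genes of that kind, and 28 of 29 (96.6%) had one in Nrf2 KO control, against 91.1%. Under 0.6 it was 7 of 33 (21.2%) against 35.6% in WT As3+, and 19 of 33 (57.6%) against 54.1% in Nrf2 KO control. DSC3 was the gene with a ratio above 0.6 and no summit in any list.

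**Figure D4:**
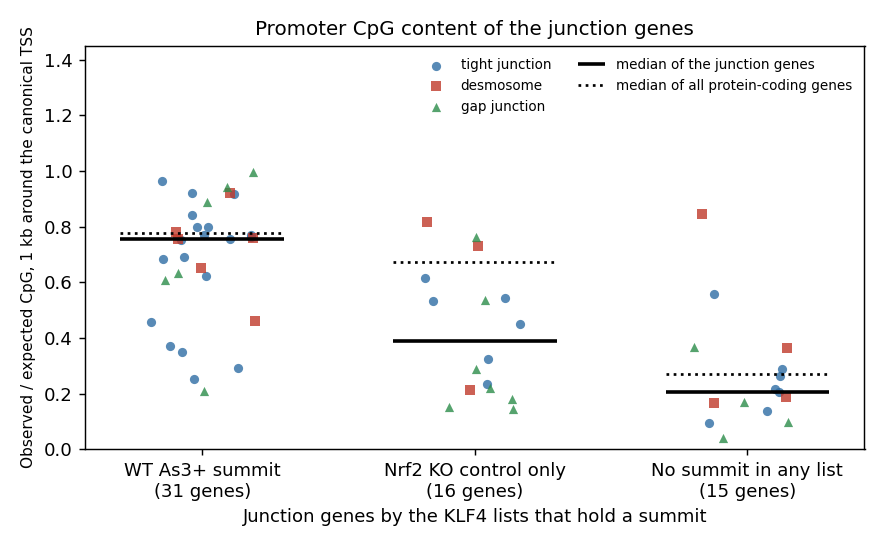
Ratio of observed to expected CpG in the 1000 bp around the canonical TSS (y axis) of each junction gene, grouped by the lists that hold a summit (x axis). Solid lines are the medians of the junction genes (0.757, 0.388 and 0.205) and dotted lines those of all protein-coding genes in the same groups. The points of the WT As3+ group lie mostly above 0.6 and those of the group with no summit mostly under it.

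The words marked in the printed windows were about as frequent at junction gene summits as at summits in general, and the widest gap was that of the ARE word in WT As3+. Within 200 bp, a KLF word was present at 5 of 55 WT As3+ sites (9.09%, against 10.3% of all summits in the list) and an AP-1 word at 3 (5.45%, against 4.33%). The short core CACCC was present at 37 (67.3%, against 62.4%). The ARE word was present at 10 (18.2%, 9.08% to 30.9%), including those of CLDN3, CLDN4, CLDN5, GJA3, JUP, OCLN and PKP3, against 9.36% of all summits, a background just inside that interval. In windows of 400 bp it was present at 17 of 55 sites (30.9%, 19.1% to 44.8%), and the background of 17.6% then lay outside the interval. At the Nrf2 KO control summits the ARE word was present at 16 of 134 sites (11.9%, against 9.17%), the KLF word at 15 (11.2%, against 9.27%) and the AP-1 word at 5 (3.73%, against 2.54%). In 400 bp the background of the KLF word in Nrf2 KO control also lay outside the interval (23.1%, 16.3% to 31.2%, against 16.2%). Apart from these 400 bp cases, the background lay inside the interval for every word and window width. In 200 bp the median GC content was 67.0% at the WT As3+ sites, against 64.5% of all summits, and its part was not tested. The intervals of these shares are wide, and a word in a window says only that its letters are there.

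Some of these words lie in sequence that is repeated across the genome. Each of the 21 words in the WT As3+ windows was searched in hg38 together with 4 bases on either side. For 16 of them the stretch occurred 1 to 8 times, among them both AP-1 words at CLDN6 and the KLF words of CLDN19 and GJA3. For the other 5 it occurred 248 to 38582 times. These included the KLF and ARE words of the OCLN intron (248 and 2633 copies) and the ARE word upstream of GJA3 (38582 copies). Counting only words with up to 100 copies left 3 windows with a KLF word, 2 with an AP-1 word and 8 with an ARE word. No repeat annotation was used here, and the same count was not made for all summits.

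The promoters of the junction genes were also read in the RefSeq promoter table (GRCh38, from before each gene's start to shortly after it), in which 42 of the 62 genes were found among 15843. A KLF word was present in 6 of them (14.3%, against 9.72% of all promoters), an AP-1 word in 3 (7.14%, against 3.66%) and an ARE word in 5 (11.9%, against 14.3%). The KLF words were in the promoters of CLDN7, GJA3, GJB2, GJB6, JUP and OCLN. The counts are small, and no difference from the other promoters was tested.

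Other genes of the same structures, namely 44 adherens junction, polarity and further tight junction, connexin and desmosome genes, were counted in the same way. Of them 35 (79.5%, against 63.7% of all protein-coding genes) had a WT As3+ summit, 42 (95.5%, against 78.6%) a Nrf2 KO control summit and 0 (against 0.414%) a Nrf2 KO As3+ summit, and no difference from the 62 was tested. In WT control 3 of the 44 (6.82%, against 2.28%) had a summit, and 0 of the 62. These were CDH3, CTNNB1 and PPL, which encode P-cadherin, β-catenin and the plaque protein periplakin. The genes gained in WT As3+ numbered 32 (72.7%, against 61.5%), including CDH1, which encodes E-cadherin. GJE1 and PANX3 (4.55%, against 18.7%) had no summit in any list.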

How the data were processed

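KLF4 ChIP-seq peak lists of 4 BEAS-2B libraries were used, 1 per condition, and the input and histone mark libraries were left out. The authors aligned reads of 75 nt to GRCh38/hg38 with BWA, and the labels name bcl2fastq 2.17. Which peak caller was run, and how, is not given in the sources used here. For each peak the deposited lists give a score (10 times the −log10 q, rounded down), a fold enrichment (a ratio to the local background at the summit), and the −log10 p and −log10 q there, all made by the authors per library. Only peaks on chromosomes 1 to 22, X and Y entered the counts, and none ran past the end of an hg38 chromosome.

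Fragments over a summit (n) and background (λ) were solved from fold = (n + 1)/(λ + 1) and the Poisson upper tail, with a largest misfit in −log10 p of 0.000405. The step recovered n in 100% of 2856 peaks simulated with these same formulas, which checks the computation and not the formulas. Read totals per library are unknown, so these fragments are the depth behind a peak, and a peak missing from a list may lie under its threshold. Genes, TSS and canonical transcripts came from GENCODE 44 (Ensembl 110). Windows, overlaps of at least 1 bp and words in 200 bp were counted on whole lists, and window and word steps found 100% of planted genes and words in simulated data. Intervals at 95% (exact Poisson for fragments, Clopper-Pearson for shares) cover counting error only. Members and lists were chosen with earlier results of these data known. Genes given with values were those in WT control or Nrf2 KO As3+, those with the highest folds or most summits of each kind of junction, and those of shared chromosome clusters. Others named with values were chosen after their values were seen. Some genes and sites that these rules chose are not reported here. The tools were samtools 1.23.1, Python 3.11.15, pandas 2.3.3, matplotlib 3.10.9, scipy 1.17.1, pysam 0.24.0 and numpy 2.4.6.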

Additional observations from a re-analysis of the deposited data

Results flagged for a closer look

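As3+ went with opposite changes in the 2 genotypes. The number of junction genes with a KLF4 summit rose by 31 in WT cells, from 0 to 31, and fell by 46 in Nrf2 KO cells, from 47 to 1. Over all protein-coding genes the share went from 2.28% to 63.7% and from 78.6% to 0.414%, so the swing was genome-wide. At the level of single genes, 30 of the 62 (48.4%) entered the list with As3+ in WT cells and left it with As3+ in Nrf2 KO cells, against 58.7% of all protein-coding genes. The difference between the genotypes was not tested, because each condition has 1 library, and the 2 libraries with the fewest peaks were also those with the highest background.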

How the results depend on the processing

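Of 62 recomputed values 38 stayed close to those of the report and 24 moved, and some changed their order or their side of the background, as given here. No paired analysis was possible because each condition has a single library. With peaks under a −log10 q of 5 left out, the junction genes numbered 0 in WT control, 19 in WT As3+, 27 in Nrf2 KO control and 0 in Nrf2 KO As3+ (all protein-coding genes 1.34%, 35.5%, 48.0% and 0.185%), and 19 were gained, 13 of them with a Nrf2 KO control summit and 0 with a Nrf2 KO As3+ summit. Among as many of the strongest peaks as the WT control list holds, 3 junction genes were left in WT As3+ and 0 in Nrf2 KO control, against 3.11% and 3.79% of all genes. The order of these 2 lists was then the other way round, and the share in WT As3+ (4.84%) lay above the background instead of below it. Within 2 kb of the TSS, 0 junction genes were in Nrf2 KO As3+, 0 gained genes had a summit there, and 22 of 23 gained genes had one in Nrf2 KO control, CLDN10 being the exception. The other gene windows kept every count of WT As3+ and Nrf2 KO control within 1.5 times that of the report.

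The share of WT As3+ summits near the TSS was 73.2% within 5 kb and 75% at a −log10 q of at least 5, against 63.8% and 63.3% over all protein-coding windows. In Nrf2 KO control it was 35.8% within 1 kb, 63.5% within 5 kb and 65.8% at that −log10 q, against 26.6%, 48.2% and 56.4%. Gene length was not allowed for in these shares. Sharing of WT As3+ sites with Nrf2 KO control was 56.4% when summits had to lie within 200 bp. Wider windows held more words by construction. The ARE word was at 7.27% of WT As3+ sites in 100 bp and 30.9% in 400 bp (all summits 4.80% and 17.6%), and at 6.72% and 20.1% of Nrf2 KO control sites (4.54% and 17.6%). The KLF word was at 2.99% of Nrf2 KO control sites in 100 bp, below the 5.00% of all summits, and at 23.1% in 400 bp, above their 16.2%. The KLF word in WT As3+ passed from under the background to 18.2% against 16.9% in 400 bp. The AP-1 word in WT As3+ stood at 1.82% against 1.99% in 100 bp and 5.45% against 7.77% in 400 bp, below the background in both. The core CACCC alone was at 67.3% and 64.9% in the 2 lists (62.4% and 61.8%). A peak of 4 to 10 fragments has a wide counting interval, and a signal under the threshold of a list is not seen in it.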
